A study of Mus musculus with 40 samples.

Results

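The genes described here are 9 that encode apolipoproteins and proteins of lipoprotein assembly and remodelling: Apoa1, Apoa2, Apoa4, Apob, Apoe, Apoh, Apom, Mttp and Lipc. They were taken by name from a list, which was made with earlier results of these data known. No rule on their levels was applied to choose them. Of the 9, 5 had a row among the 11119 genes of the tables: Apoa4, Apob, Apoh, Mttp and Lipc. Apoa1, Apoa2, Apoe and Apom were not analysed here.

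The liver exports lipid to the blood as very low density lipoprotein (VLDL). Each particle is built on apolipoprotein B, the product of Apob, which is lipidated in the endoplasmic reticulum by microsomal triglyceride transfer protein, the product of Mttp. Exchangeable apolipoproteins such as apolipoprotein A-IV (Apoa4) move between particles, and hepatic lipase (Lipc), secreted by hepatocytes, hydrolyses lipid of remnant particles and of high density lipoprotein (HDL). Apolipoprotein H (Apoh), also called beta-2-glycoprotein I, is an abundant plasma protein that binds anionic phospholipids.

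The RNA was polyadenylated RNA of mouse liver whose labelled cell type is hepatocytes. Livers were sampled at 0 h, which is before partial hepatectomy (PH, the surgical removal of liver lobes that starts regrowth), or at 48 or 72 h. ATRi, which inhibits the replication checkpoint kinase ATR, was given at 24 h to some of the mice. The 40 samples formed 9 groups. At 3 months of age there were 7 mice at 0 h, 3 untreated mice at 48 h, 4 untreated mice at 72 h and 4 ATRi mice at 72 h. The 7 include mice labelled wt1, wt2 and wt3, and the labels do not say whether these differ from the numbered mice. At 12 months there were 8 mice at 0 h, 3 untreated and 3 ATRi mice at 48 h, and 4 untreated and 4 ATRi mice at 72 h. Of the mice at 72 h, all those of 12 months and 2 of 4 in either 3-month group had also been sampled at 0 h. No label of a mouse at 48 h occurs at 0 h, so differences between these times are between separately labelled mice. Strain and sex are not given in the sources used here.

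Levels are the authors' log2 values of a quantity they name sigma and the sources do not define, so levels were compared within a gene and not between genes. The tables hold no counts, so sequencing depth cannot be given. A single deposited mean stood for each of 8 groups. Single livers (mice M545 to M548) were listed for the 12-month ATRi group at 72 h alone. That group's deposited mean lay above the mean of its livers' log2 levels by a median of 0.088 over all genes. Alb, the hepatocyte marker albumin, stood between 14.65 and 16.01 over the groups. Of 12 hepatocyte markers 10 had a row, with a summed level between 15.48 and 16.73. Summed macrophage markers ranged from 7.72 to 9.70 and summed neutrophil markers from 3.33 to 6.80, and both were higher in the 12-month groups at 72 h than in the other 7 groups. Fewer cells of a type and less RNA per cell cannot be told apart in such bulk tissue.

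Positions are on GRCm38 with GENCODE M21 annotation. Apoa4 (ENSMUSG00000032080.6) spans chr9:46240696-46243459 on the plus strand, 2764 bases, within the cluster that also holds Apoa5. Apob (ENSMUSG00000020609.14) spans chr12:7977648-8016835 on the plus strand. Apoh (ENSMUSG00000000049.11) spans chr11:108343354-108414396 on the plus strand. Mttp (ENSMUSG00000028158.14) spans chr3:138089854-138144968 on the minus strand. Lipc (ENSMUSG00000032207.10) spans chr9:70798128-70952226 on the minus strand, the longest of the 5 at 154099 bases.

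The sequences directly upstream of annotated starts are shown for Apoa4, Apob and Lipc, the members whose group means ranged most widely. They come from the RefSeq promoter table of GRCm38.p6, in which all 5 members matched, and are read 5′ to 3′ on the gene's strand. For Apoa4 and Apob the sequence ends just before the GENCODE start, which lies 148 and 29 bases upstream of the RefSeq start. Capitals mark a match to CAAAGNNCA, a sequence of the kind bound by the hepatocyte factor HNF4A, searched on both strands. The match is on the gene's strand in Apoa4 and on the opposite strand in Apob and Lipc, where the capitals read as its reverse complement.
Apoa4 (chr9:46240594-46240695, plus strand): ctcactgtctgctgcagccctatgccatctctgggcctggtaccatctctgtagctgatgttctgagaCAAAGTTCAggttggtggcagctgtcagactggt
Apob (chr12:7977427-7977647, plus strand): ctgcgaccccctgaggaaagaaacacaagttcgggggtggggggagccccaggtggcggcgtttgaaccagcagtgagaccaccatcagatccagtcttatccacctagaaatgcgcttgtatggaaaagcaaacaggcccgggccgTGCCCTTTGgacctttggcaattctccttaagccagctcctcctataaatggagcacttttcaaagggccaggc
Lipc (chr9:70934809-70935058, minus strand, upstream of the start of Lipc-201): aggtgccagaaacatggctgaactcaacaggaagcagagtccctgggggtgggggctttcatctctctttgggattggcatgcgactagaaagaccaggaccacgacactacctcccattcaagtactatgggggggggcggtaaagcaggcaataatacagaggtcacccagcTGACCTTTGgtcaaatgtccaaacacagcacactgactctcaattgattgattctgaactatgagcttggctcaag
The letters of the motif were chosen after these windows had been seen. Over all mouse promoter windows of 300 bases, 2089 of 32851 (6.36%) held such a match. Apoh also held a match, as CAAAGCGCA, and neither the window of Mttp nor that of the other annotated start of Lipc (Lipc-204) did. TATAAA was found in the Apob window and in 13.6% of all windows, and TGTTTAC, a forkhead-type motif, in the Apoh window and in 3.65% of all windows. No matches overlapped. A match is a run of letters and no measurement of binding. Hnf4a itself, which encodes HNF4A, had group means between 7.53 and 8.05, and it passed the test in none of the 5 tested comparisons (limma, Benjamini-Hochberg adjusted p between 0.059 and 0.997).

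The 5 members differed widely in how far their group means ranged. Apoa4 spanned 4.39 on the log2 scale, more than 99.6% of all genes, and Lipc spanned 2.72, more than 97.2%. Apob spanned 1.57, more than 85.4% of genes. Apoh spanned 0.43 and Mttp 0.55, both less than the median range of all genes, 0.82. The plot of levels by group shows these ranges side by side.

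**Figure D1:**
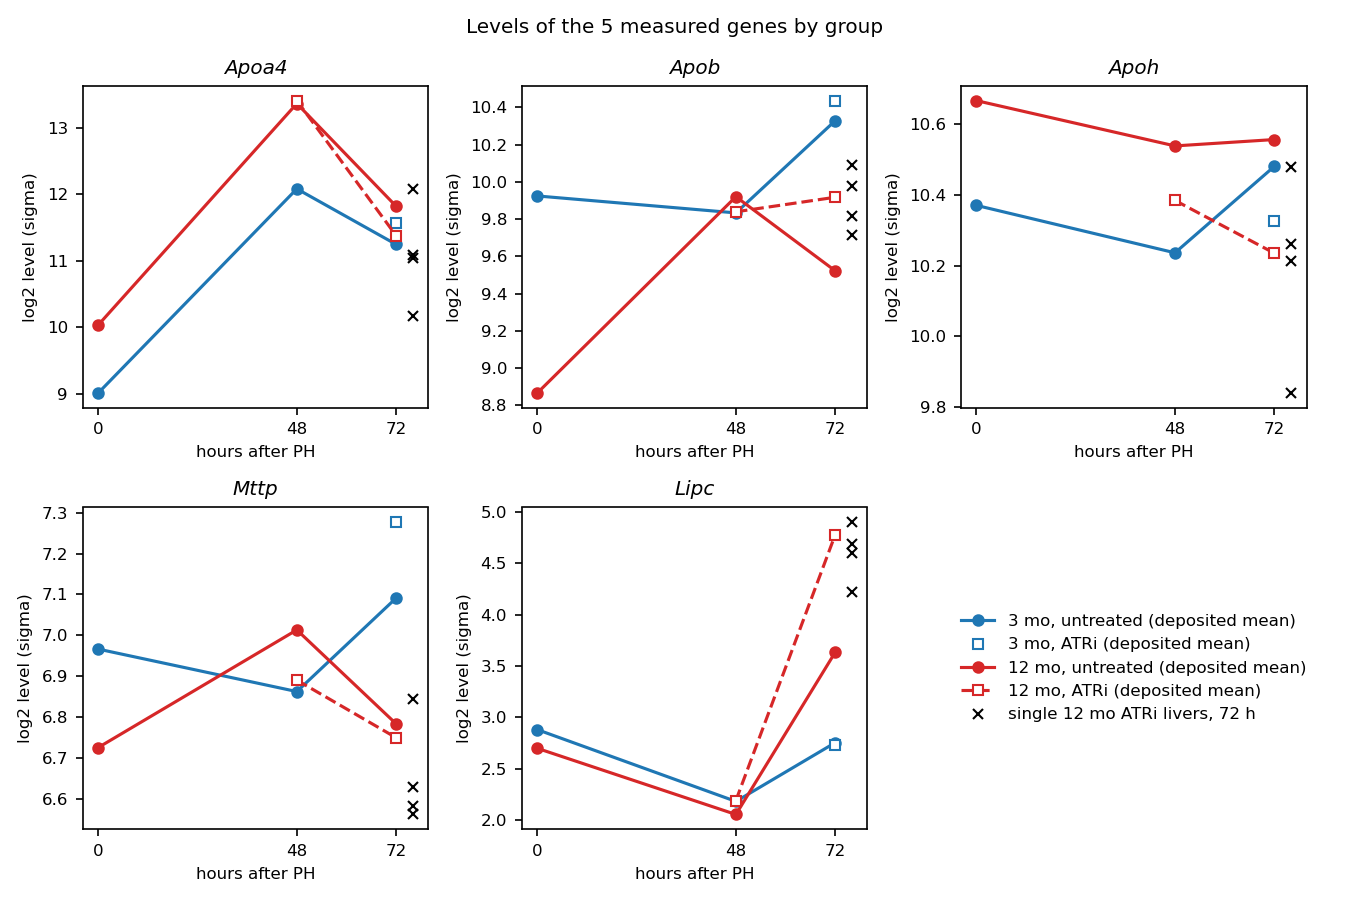
Log2 level (sigma, vertical axis) of the 5 measured genes against hours after PH, with circles for untreated and open squares for ATRi group means at 3 months (blue) and 12 months (red), and crosses for the 4 single 12-month ATRi livers at 72 h, drawn to the right of that time. Vertical scales differ between panels. Group means of Apoa4 range over 4.39 and of Lipc over 2.72, against 0.43 for Apoh and 0.55 for Mttp.

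Apob, the scaffold of VLDL, had a lower mean before PH at 12 than at 3 months. Its mean at 0 h was 9.92 at 3 months and 8.87 at 12 months, a difference of −1.06 or 2.08-fold. After PH the means at 3 months were 9.83 at 48 h, 10.33 at 72 h and 10.44 at 72 h with ATRi. At 12 months they were 9.92 at 48 h, 9.84 at 48 h with ATRi, 9.52 at 72 h and 9.92 at 72 h with ATRi. The 12-month mean at 0 h was thus the lowest of the 9, and at 48 h it equalled that of 3-month livers at 0 h to 2 decimals. In the order of the 9 means, the middle 5 lay from 9.83 to 9.92, closer together than the SD of single livers. The single ATRi livers stood at 9.82, 9.71, 10.09 and 9.98 (SD 0.17, n = 4), so the gap between ages at 0 h was larger than the whole range of these livers, 0.38.

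The means of Apob at 0 and 48 h were set side by side for the ages. The 48 h mean minus that at 0 h was 1.05 at 12 months and −0.09 at 3 months. The difference between these responses was 1.15 (SE 0.18), with an adjusted p of 0.047 by limma with Benjamini-Hochberg adjustment over all genes. That test was chosen after the values had been seen and takes its spread from the 4 ATRi livers of another time point. The same fit called 120 of 11119 genes. The call was lost without any 1 of the 4 livers (adjusted p between 0.062 and 0.129) and with columns centred, no trend, equal weights or a filter on low levels (0.051 to 1), and was kept with quantile normalization (0.038). Between untreated means, 12 minus 3 months was −1.06 at 0 h, 0.09 at 48 h and −0.81 at 72 h. The difference between the 48 h responses is thus mostly the difference at 0 h.

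Mttp, the lipid transfer partner of apolipoprotein B, had group means ranging over 0.55, less than the median range of all genes, 0.82. Its means at 3 months were 6.97 at 0 h, 6.86 at 48 h, 7.09 at 72 h and 7.28 at 72 h with ATRi. At 12 months they were 6.72 at 0 h, 7.01 at 48 h, 6.89 at 48 h with ATRi, 6.78 at 72 h and 6.75 at 72 h with ATRi. The ATRi livers stood at 6.58, 6.84, 6.63 and 6.56 (SD 0.13, n = 4), and only the topmost gap in the order of the 9 means, 0.19, exceeded that SD. The range of all 9 means exceeded it as well. Gaps between ranked neighbours are only parts of that range and cannot show how little the means vary. The SD is that of single livers and not of group means. Over the 9 means Mttp and Apob ran together with a Pearson r of 0.81, the highest of the 10 pairs of members. The other pairs lay between −0.59, for Apob and Apoh, and 0.23, for Apoa4 and Apob. These 9 points share livers before and after PH and are given as a description.

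Apoa4 had its lowest means before PH and its highest at 48 h. At 3 months the means were 9.01 at 0 h, 12.08 at 48 h, 11.25 at 72 h and 11.56 at 72 h with ATRi. At 12 months they were 10.04 at 0 h, 13.36 at 48 h, 13.41 at 48 h with ATRi, 11.82 at 72 h and 11.38 at 72 h with ATRi. The 48 h mean exceeded that at 0 h by 3.07 at 3 months (8.39-fold on the authors' scale) and by 3.33 at 12 months (10-fold). The ATRi livers stood at 12.08, 11.04, 10.17 and 11.09 (SD 0.78, n = 4), with M545 high and M547 low. The difference from 0 to 48 h exceeded the whole range of these livers, 1.91, at either age, while the 4 means at 72 h lay within 0.57 of each other, less than the SD.

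The 12-month mean of Apoa4 was above the 3-month mean at each time without ATRi, by 1.02 at 0 h, by 1.28 at 48 h and by 0.57 at 72 h. The difference between the ages in the 48 h response was 0.26 (SE 0.53, adjusted p = 0.878 by limma with the borrowed spread), with a 95% interval from −1.02 to 1.54.

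Apoa5, the neighbour of Apoa4 in the cluster and a modulator of plasma triglyceride, had a narrower range of means. Its means at 3 months were 10.63 at 0 h, 10.03 at 48 h and 9.87 at 72 h. At 12 months they were 10.38 at 0 h, 10.71 at 48 h, 11.14 at 48 h with ATRi and 9.85 at 72 h. The 48 h mean minus that at 0 h was −0.60 at 3 months and 0.33 at 12 months, so it was highest at 48 h at the older age, as in Apoa4. A joined entry, Apoc4-apoc2, was looked at after its values had been seen, and its reads cannot be assigned to either gene. It stood at 10.47, 11.59 and 11.08 at 0, 48 and 72 h at 3 months and at 10.76, 11.56 and 10.84 at 12 months. Its 48 h mean was therefore above 0 h by 1.12 and 0.80, less than in Apoa4.

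**Figure D2:**
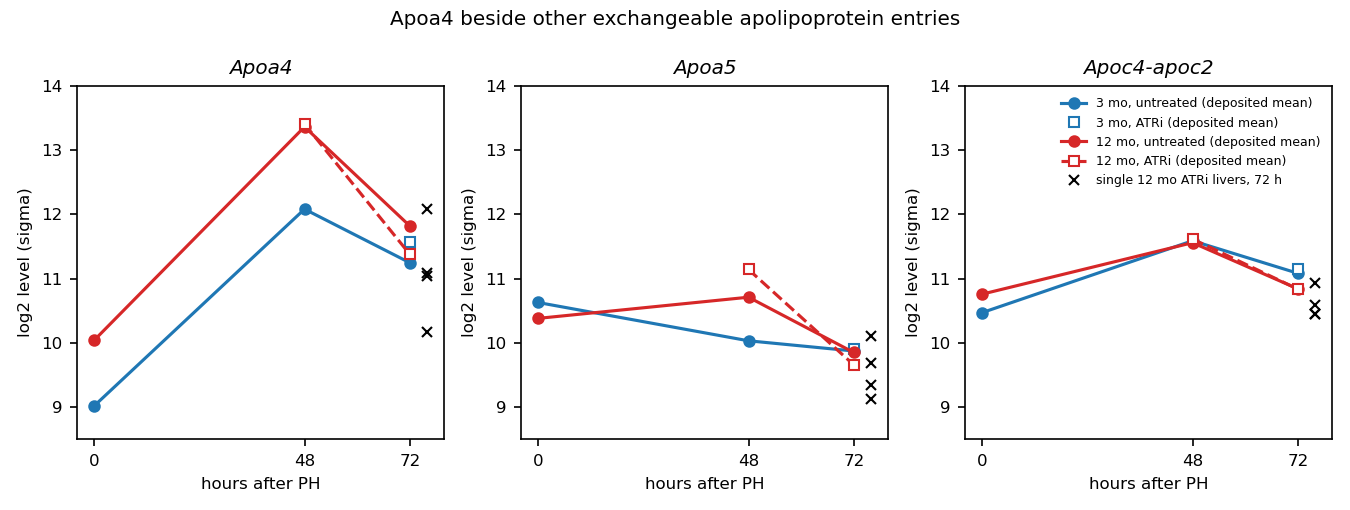
Log2 level (sigma) of Apoa4, Apoa5 and the joined entry Apoc4-apoc2 against hours after PH on a common vertical scale, with circles for untreated and open squares for ATRi group means at 3 months (blue) and 12 months (red) and crosses for the 4 single ATRi livers. Apoa4 is 3.07 and 3.33 above its 0 h mean at 48 h, the joined entry 1.12 and 0.80, and Apoa5 differs by −0.60 at 3 months and 0.33 at 12 months.

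Apoa4 is also strongly expressed in the small intestine, so intestinal markers were examined. Of 5 listed, Fabp2 and Cdx2 had rows. Fabp2, the intestinal fatty acid binding protein, lay between 0.10 and 1.16 in the 9 means, and Cdx2, an intestinal transcription factor, between 0.05 and 0.69. The lowest value of any gene in a table lay between 0.049 and 0.548. Fabp2 was highest at 3 months, with 0.97 at 0 h and 1.16 at 48 h, and lower in each 12-month group. The part of intestinal RNA in the levels of Apoa4 was not tested. Creb3l3, a transcription factor of hepatocytes, had means of 8.76 and 8.41 at 0 and 48 h at 3 months and of 8.23 and 9.03 at 12 months. Its part in the levels of Apoa4 was not tested.

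Apoh varied least. Its means at 3 months were 10.37 at 0 h, 10.24 at 48 h, 10.48 at 72 h and 10.32 at 72 h with ATRi. At 12 months they were 10.67 at 0 h, 10.54 at 48 h, 10.38 at 48 h with ATRi, 10.56 at 72 h and 10.24 at 72 h with ATRi. The ATRi livers stood at 9.84, 10.48, 10.21 and 10.26 (SD 0.26, n = 4), and no gap between neighbours in the order of the 9 means exceeded this SD. The range of all 9 means did exceed it. Between single livers, Apob and Mttp had smaller SDs than Apoh, 0.17 and 0.13.

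Lipc, hepatic lipase, was lowest at 48 h in every group of that time and highest in 12-month livers at 72 h. At 3 months the means were 2.88 at 0 h, 2.18 at 48 h, 2.75 at 72 h and 2.72 at 72 h with ATRi. At 12 months they were 2.70 at 0 h, 2.05 at 48 h, 2.19 at 48 h with ATRi, 3.63 at 72 h and 4.78 at 72 h with ATRi. The 3 means at 48 h lay within 0.14 of each other. The ATRi livers stood at 4.22, 4.60, 4.68 and 4.90 (SD 0.29, n = 4), all above the mean of each other group.

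At 3 months the 72 h mean of Lipc differed from that at 0 h by −0.13. At 12 months the untreated 72 h mean was 0.94 above 0 h and 1.58 above 48 h, or 2.99-fold. Lipoprotein lipase (Lpl), the related enzyme of extrahepatic tissues, also stood above its 48 h mean at 72 h at 12 months, by 1.83, and its mean was 5.55 against 3.72. Summed macrophage markers were 9.70 and 7.72 in the same groups. Lpl is expressed by macrophages, and their part in its difference was not tested.

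Without a test, members were counted where the means of 2 groups differed by 1 or more. Before PH, 2 of 5 differed so between ages (Apoa4 higher and Apob lower at 12 months), against 1.27% of all genes. From 0 to 48 h it was 1 of 5 at 3 months (Apoa4), against 6.43%, and 2 of 5 at 12 months (Apoa4 and Apob), against 5.12%. From 0 to 72 h it was Apoa4 alone at 3 months, against 4.49%, and at 12 months, against 3.93%. Between 48 and 72 h no member differed so at 3 months, against 4.65%, and 2 of 5 did at 12 months (Lipc higher and Apoa4 lower at 72 h), against 5.21%. Between ages 1 member differed at 48 h (Apoa4), against 1.36%, and none at 72 h, against 2.74%. With ATRi no member differed so at 48 h at 12 months, against 0.576%, or at 72 h at 3 months, against 0.18%. Apoa4 accounted for 7 of these 10 differences, several of which share a mean.

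**Figure D3:**
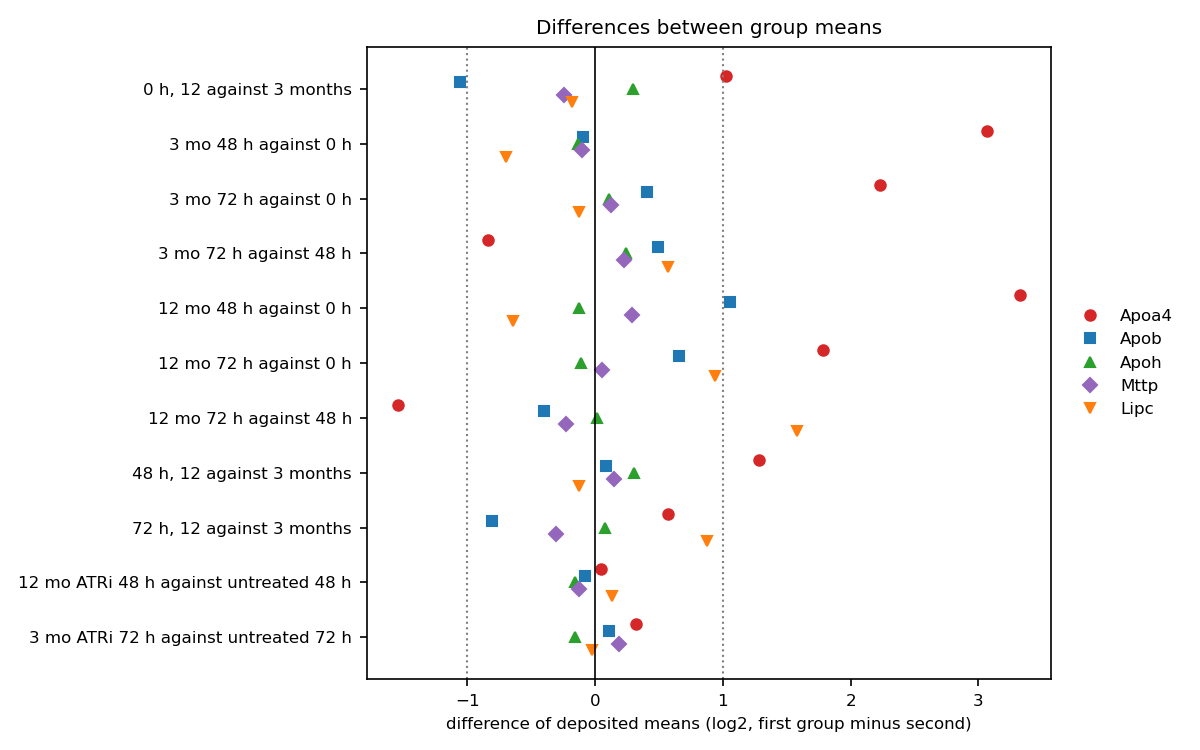
Difference between deposited group means (log2, first group minus second) for the 5 genes in the 11 comparisons that have means alone, with dotted lines at −1 and 1. Apoa4 reaches 3.07 and 3.33 at 48 h against 0 h, and no gene passes a line in the lowest pair of comparisons, which set ATRi against untreated livers.

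The only group with single livers allowed a test of ATRi in 12-month livers at 72 h. Values were compared with limma, and the spread came from the 4 ATRi livers alone and was assumed for the untreated mean. Lipc was 0.97 higher with ATRi (SE 0.21, in 4 of 4 livers), with an adjusted p of 0.052. Apob was 0.38 higher (SE 0.13, in 4 of 4 livers, adjusted p = 0.091), and Apoh differed by −0.36 (SE 0.16, lower in 4 of 4 livers, adjusted p = 0.159). Apoa4 differed by −0.73 (SE 0.39, adjusted p = 0.218) and Mttp by −0.13 (SE 0.12, adjusted p = 0.461). The fit sets the livers' own log2 mean against a deposited mean. In the ATRi group the deposited mean was above that of the livers by 0.285 for Apoa4 and 0.18 for Lipc. Between deposited means the differences were −0.44 for Apoa4, 1.14 for Lipc, 0.40 for Apob, −0.32 for Apoh and −0.03 for Mttp. None of the 5 passed the threshold of 0.05.

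No gene of the 11119 did so either (0%), although 4116 (37.0%) had an unadjusted p under 0.05, and the lowest adjusted p was 0.051. With columns centred on their medians, 720 genes passed and still none of the members. Without M546, 3191 genes passed, and Lipc had an adjusted p of 0.036 at the same difference of 0.97. Under the other alternatives its adjusted p lay between 0.052 and 0.371. The 95% intervals were 0.46 to 1.47 for Lipc and −1.67 to 0.21 for Apoa4.

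The ATRi difference at 72 h in 12-month livers was graded by the genomic span of genes. Of all genes, 10061 (90.5%) had a span in the annotation. Between the deposited means the median difference was −0.08 for 1682 genes of up to 10 kb, −0.05 for 3807 genes of 10 to 30 kb, 0.18 for 3304 genes of 30 to 100 kb and 0.50 for 1268 genes of over 100 kb. In the longest class 21.9% of genes were higher by 1 or more and 0% lower.

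Lipc, at 154099 bases, is in that class, and its own difference of deposited means, 1.14, exceeded that of 82.3% of the class. Less the median of the class, it was 0.65. In single livers the median of the longest class was 0.58 in M545, 0.22 in M546, 0.50 in M547 and 0.47 in M548. Lipc was lowest in M545, at 4.22, where that median was highest, and stood at 4.60 in M546, where it was lowest. At 3 months, where the ATRi difference of Lipc was −0.03, the class median was −0.04. In the comparisons of the 12-month ATRi livers at 72 h with other groups the same class was also higher. Its median was 0.58 against 3-month ATRi livers, 0.65 against 48 h with ATRi and 0.63 against 0 h, where Lipc exceeded 91.2%, 93.7% and 88.6% of the class. The part of span in the differences of Lipc was not tested beyond these values. Apob, Apoh and Mttp are in the class of 30 to 100 kb, with a median of 0.18 for ATRi against untreated 12-month livers at 72 h. Less that median, their differences of deposited means were 0.215, −0.50 and −0.21, and Apob exceeded 66.0% of the class. Apoa4, in the class of up to 10 kb, was at −0.37 less its class median. The part of span was not tested for these 4 genes either.

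**Figure D4:**
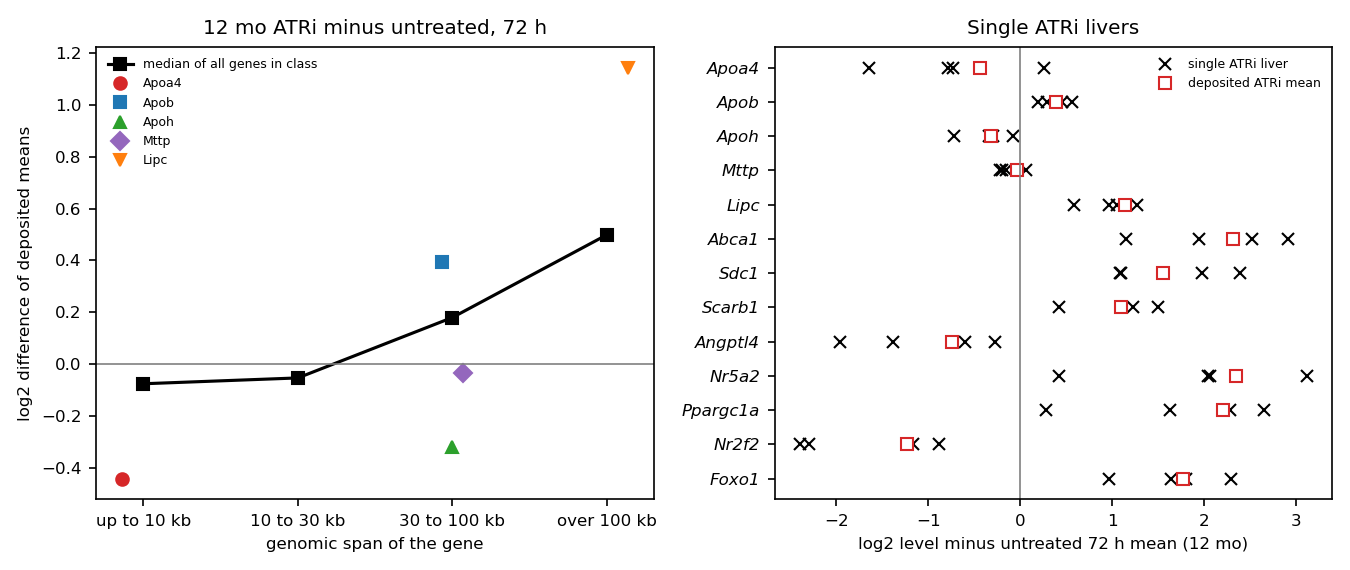
Left, log2 difference of deposited means between ATRi and untreated 12-month livers at 72 h by class of genomic span, with black squares for the median of all genes of a class and coloured symbols for the 5 genes. Right, log2 level of each single ATRi liver (crosses) and of the deposited ATRi mean (open squares) minus the untreated mean, for the 5 genes and 8 genes of lipoprotein clearance and regulation; class medians go from −0.08 to 0.50 and Lipc stands at 1.14.

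The difference between ages in the ATRi effect at 72 h was tested by the same fit. No member passed, and 1 of 11119 genes did (0.00899%), with 2724 at an unadjusted p under 0.05. Lipc had the smallest adjusted p of the members, 0.131, with a difference of 1.0 (SE 0.30). Apoa4 had −1.04 (SE 0.55, adjusted p = 0.282). With deposited means alone these were 1.17 for Lipc and −0.76 for Apoa4. The sides of this comparison at 3 months are deposited means alone.

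Between ATRi livers of 12 and 3 months at 72 h, 3 of 5 members passed, against 30.1% of all genes. Lipc was higher at 12 months by 1.88 (SE 0.21, adjusted p = 0.008), 3.67-fold. Mttp and Apob were lower, with differences of −0.62 and −0.54 (SE 0.12 and 0.13, adjusted p = 0.017 and 0.026). All 4 livers lay on the same side of the 3-month mean for these 3 genes. Without M547 or without M548 the calls of Apob and Mttp were lost, with adjusted p between 0.055 and 0.068, and Lipc was the only member called. With every observation weighted 1, none of the 3 passed (adjusted p between 0.107 and 0.193). Apoa4 differed by −0.47 (adjusted p = 0.372) and Apoh by −0.13 (adjusted p = 0.560). Between deposited means Lipc differed by 2.05 and Apoa4 by −0.185. Between untreated means at 72 h, 12 minus 3 months was 0.88 for Lipc, −0.31 for Mttp and −0.81 for Apob.

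From 48 to 72 h with ATRi at 12 months, 2 of 5 members passed, against 38.5% of all genes. Lipc rose by 2.41 (SE 0.23, adjusted p = 0.004), 5.32-fold. Apoa4 fell by 2.31 (SE 0.42, adjusted p = 0.010), 4.97-fold, a call lost with every observation weighted 1 (0.068). Each of these changes had the same direction in 4 of 4 livers. With the deposited ATRi mean in place of the livers, the changes were 2.59 for Lipc and −2.03 for Apoa4. The course without ATRi had the same directions between means, 1.58 for Lipc and −1.54 for Apoa4. Apob, Apoh and Mttp had differences of 0.06, −0.19 and −0.24, with adjusted p of 0.754, 0.422 and 0.194.

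Against 0 h, 4 of 5 members passed in the 12-month ATRi livers at 72 h, against 48.1% of all genes. Lipc rose by 1.90 (adjusted p = 0.001), Apoa4 by 1.06 (adjusted p = 0.041) and Apob by 1.03 (adjusted p = 0.002). Apoh fell by 0.47 (adjusted p = 0.033). Mttp differed by −0.07 (adjusted p = 0.600). Between deposited means Lipc was 2.08 and Apoa4 1.34 above 0 h. Without ATRi the 72 h mean minus that at 0 h was 0.94 for Lipc, 1.78 for Apoa4, 0.66 for Apob and −0.11 for Apoh. The calls of Apoa4 and Apoh were lost without M548, with adjusted p of 0.097 and 0.079. That of Apoa4 was also lost without M546 (0.087) and that of Apoh without M547 (0.099). With every observation weighted 1 Lipc alone passed (adjusted p = 0.0499), and with no trend or quantile normalization the call of Apoa4 was lost (0.055 and 0.099). The 4 livers came from mice that had also contributed to the 0 h mean, and the fit treats them as independent.

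Other genes of the pathway were read through 4 lists: other apolipoproteins and HDL remodelling (12 of 20 measured), VLDL assembly and secretion (21 of 27), clearance, receptors and export (17 of 19) and transcriptional regulators (22 of 24). For ATRi at 72 h in 12-month livers none of them held a gene that passed. Their median differences were −0.24, −0.02, 0.09 and 0.03, beside 0.03 over all genes and −0.13 over the members. Abca1, which exports cholesterol to apolipoprotein A-I, had the largest difference, 2.14 (adjusted p = 0.051), with livers at 6.65, 5.85, 7.22 and 7.62 against an untreated mean of 4.70. Scarb1, the HDL receptor, had 1.06 (adjusted p = 0.055) and Sdc1, a heparan sulfate receptor of remnants, 1.64 (adjusted p = 0.052). Differences of like size lay in the other direction. Apol9b, an apolipoprotein L family gene, had −1.77 (adjusted p = 0.052), and its livers stood at 1.83, 3.33, 1.71 and 1.92 against 3.96. Its near-identical copy Apol9a, with which it may share reads, had −0.53 (adjusted p = 0.315). Nr2f2, an orphan nuclear receptor, had −1.69 (adjusted p = 0.053), with livers at 4.96, 5.24, 3.73 and 3.83 against 6.13. Angptl4, an inhibitor of lipoprotein lipase, had −1.06 (adjusted p = 0.102) and Lipg, endothelial lipase, −1.19 (adjusted p = 0.061). Foxo1, an activator of Mttp, had 1.68 (adjusted p = 0.051), with livers at 4.94, 3.61, 4.28 and 4.45 against 2.64. Nr5a2, a nuclear receptor of hepatic lipid genes, had 1.91 (adjusted p = 0.068) and was lowest in M546 at 2.68, with the others between 4.30 and 5.37. Of the genes named as higher, Abca1 and Nr5a2 span 129109 and 117878 bases, in the longest class, whose median was 0.50. Foxo1 and Scarb1 span 84886 and 64008 bases and Sdc1 22393. Of those lower, Apol9b spans 7344 bases, Angptl4 8081, Nr2f2 14792 and Lipg 21942. The part of span in these differences was not tested.

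From 48 to 72 h in the 12-month ATRi livers, 7 of 17 clearance genes rose and 0 fell, a share close to the 38.5% of all genes called. The median of the list was 0.35, beside −0.04 over all genes, and the list itself was not tested. Abca1 rose by 3.08 (adjusted p = 0.006), Lpl by 2.10 (adjusted p = 0.009) and Scarb1 by 1.45 (adjusted p = 0.012). Of the regulators, 9 of 22 rose and 3 fell, and the rises included 3.08 for Foxo1 (adjusted p = 0.004) and 2.44 for Foxa2, a forkhead factor of hepatocytes (adjusted p = 0.005). Of the genes of VLDL assembly, 3 of 21 rose and 1 fell. Dgat2, which makes triglyceride for secretion, rose by 1.49 (adjusted p = 0.009), and Klhl12, an adaptor of the ubiquitin ligase that enlarges transport vesicles, fell by 1.10 (adjusted p = 0.011). Of the other apolipoproteins, 1 of 12 rose, Clu (clusterin), and 2 fell, among them Apoa5 by 1.58 (adjusted p = 0.007). Between deposited means 36.9% of genes over 100 kb, the class of Abca1, were higher by 1 or more. In the class of 30 to 100 kb, that of Scarb1 and Foxo1, it was 16.2%. Lpl, Dgat2 and Foxa2 are shorter, and the part of span was not tested. Between untreated 12-month means these genes differed in the same directions from 48 to 72 h, without a test. The differences were 1.04 for Abca1, 1.83 for Lpl, 0.40 for Scarb1, 1.34 for Foxo1 and 1.17 for Foxa2. They were 0.41 for Dgat2, −0.74 for Klhl12, 0.50 for Clu and −0.86 for Apoa5.

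Against 3-month ATRi livers at 72 h, 5 of 17 clearance genes were called higher and 2 lower, with 30.1% of all genes called. Of the regulators, 6 of 22 were higher and 6 lower. Of the assembly genes 1 of 21 was higher and 5 were lower, and of the other apolipoproteins 4 of 12 were higher and 1 was lower. The medians of the 4 lists lay between −0.12 and 0.23, beside 0.02 over all genes. Apobec1, the enzyme that edits Apob messenger RNA, was the assembly gene that was higher, by 1.28 (adjusted p = 0.011). Mia2, a receptor for loading large cargo at the endoplasmic reticulum, was lower at 12 months, with a difference of −0.79 (adjusted p = 0.044). Abcg8, a sterol exporter into bile, was lower too, with a difference of −1.61 (adjusted p = 0.014). Between untreated means at 72 h, 12 minus 3 months was 0.89 for Apobec1, −0.92 for Mia2 and −1.665 for Abcg8, without a test.

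Against 0 h, 5 of 17 clearance genes rose and 3 fell, beside 48.1% of all genes called. Of the regulators, 7 of 22 rose and 8 fell. Of the assembly genes 3 of 21 rose and 6 fell, and of the other apolipoproteins 2 of 12 rose and 2 fell. The medians of the 4 lists lay between −0.04 and 0.00, beside −0.04 over all genes and 1.03 over the 5 members. Foxa1, a forkhead factor, fell by 3.0 (adjusted p = 0.001), whereas Foxa2 rose by 1.65 (adjusted p = 0.004). Lrp1, a remnant receptor, rose by 1.41 (adjusted p = 0.002). It spans 82988 bases, and 16.6% of genes of 30 to 100 kb were higher by 1 or more between deposited means. Foxa1 and Foxa2 span 6289 and 4093 bases. The part of span was not tested. Between untreated 12-month means, 72 h minus 0 h was −1.80 for Foxa1, 0.51 for Foxa2 and 0.79 for Lrp1.

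Between untreated means, the widest differences of the lists lay outside the assembly genes. Before PH, Saa1, an acute phase protein carried on HDL, was at 6.95 at 3 months and 9.53 at 12 months, and Angptl4, an inhibitor of lipoprotein lipase, at 7.69 and 6.47. Saa1 and its near-identical copy Saa2 may share reads. None of the 21 assembly genes differed by 1 or more between ages before PH, against 1.27% of all genes. At 48 h against 0 h, 3 of the 21 differed by 1 or more at 3 months, all lower, against 6.43% of all genes, and 0 at 12 months, against 5.12%. They were Sort1, a sorting receptor of apolipoprotein B, at 2.76 and 1.75, and the carboxylesterase paralogs Ces1d and Ces1f, whose reads may be shared. P4hb, the subunit that pairs with the Mttp product, had means of 9.81 and 10.63 at 3 months and 10.36 and 10.63 at 12 months.

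The genes most alike to each member over the 9 group means were sought among 8562 genes ranging over at least 0.5. For Apoa4 they were Rbl1 (Pearson r = 0.987), a pocket protein of the cell cycle, Mcm2 (0.980), a subunit of the replicative helicase, and Kdm2b (0.973), a histone demethylase. Mcm2 had means of 2.22, 4.39 and 3.54 at 0, 48 and 72 h at 3 months and 2.73, 4.53 and 3.99 at 12 months. For Lipc they were Arhgap26 (0.992), Zfyve1 (0.990) and Peli2 (0.990). Zfyve1 had a mean of 3.83 at 72 h at 12 months and 4.40 with ATRi, and its other means lay between 2.94 and 3.44.

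For Apob they were Siae (0.939), Snx4 (0.937) and Npm1 (0.929), the last encoding nucleophosmin of the nucleolus. Npm1 was likewise lowest at 0 h at 12 months, at 2.03, with 2.70 at 0 h at 3 months. For Mttp they were Fcf1 (0.934), Amot (0.924) and Slc6a13 (0.923), and for Apoh they were Gabrd (0.924), Fuca2 (0.924) and Ntpcr (0.875). These are the highest of 8562 values over 9 points each, and they describe the shape of the profiles alone.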

How the data were processed

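Liver RNA of 40 mouse samples in 9 groups was described in 12 tables. The authors deposited log2 levels of a value named sigma for 11119 genes, per the file headers, as 1 mean for each group and as 4 single livers of the 12-month ATRi group at 72 h. The genome build was GRCm38/mm10, per the submitters' processing notes. The alignment, counting, scaling and averaging are not given in the sources used here. No counts were given, so depth and the precision it gives are unknown.

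Groups were taken from the sample labels, and values were left on the authors' scale. The 5 comparisons with single livers were fitted with limma 3.58.1 in R 4.3.3, all groups in 1 model. Single livers had weight 1, means were weighted by their number of mice, and empirical Bayes used an intensity trend and a robust fit. Tests were two-sided and Benjamini-Hochberg adjusted over all 11119 genes, with a threshold of 0.05. The spread thus comes from 4 livers and is assumed for the other groups. The other 11 comparisons have means only and were described by a difference of 1 or more.

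All 9 listed members were to be named, and of each pathway list up to 4 genes with the largest absolute difference in a comparison. For each member the 3 genes with the highest Pearson correlation over the 9 means were named. Creb3l3 falls under this rule, P4hb, Npm1 and Zfyve1 were quoted for their role or rank, and Hnf4a was named for the motif, after its values were seen. The members and lists were chosen with earlier results of these data known. Alternatives covered centring, quantile normalization, weights, the trend, a filter at a mean level of 1, the deposited mean and leaving out each liver. Sequences came from RefSeq (GRCm38.p6) and gene spans from GENCODE M21, matched by symbol.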

Additional observations from a re-analysis of the deposited data

Results flagged for a closer look

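Among the 4 livers of the 12-month ATRi group at 72 h, 1 liver stood apart from the other 3 for 7 of 78 members and listed genes examined, by a test that chance alone trips in about 1 of 20 groups. M545 was that liver for 6 of them. Apof, an apolipoprotein that inhibits lipid transfer, was 10.74 in M545 and between 11.35 and 11.47 in the others. Pon1, the HDL-bound paraoxonase, was 7.267 in M545 and at least 8.59 elsewhere. Ces1g was 6.584 in M545 against 6.92 to 6.98, and Nr1h3, the oxysterol receptor LXR alpha, was 6.813 against 6.97 to 6.98. Lipa, lysosomal acid lipase, was 6.619 in M545 against 6.32 to 6.35, and Ppargc1b was 1.327 against 0.99 to 1.02. Apol9b was 3.327 in M546 and between 1.71 and 1.92 in the others. None of the 5 members was among them.

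Apob differed between ages in its difference from 0 to 48 h, by 1.145 on the log2 scale, as given above with its test, and this call was lost under 8 of 9 alternatives, all chosen after the values had been seen. The 48 h groups hold 3 mice each, and both sides are deposited means. The ages differed by 0.09 at 48 h, so the value is mostly their difference at 0 h, −1.06.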

How the results depend on the processing

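Of 410 single-gene results under an alternative, 25 lost a call and 1 gained one. The sign changed in 9, of which 0 had been called. Apob from 48 to 72 h with ATRi, 0.06, became −0.059 with quantile normalization, and ran from −0.0037 without M547 to 0.12 without M546. Mttp in ATRi livers at 72 h against 0 h, −0.07, became 0.02 with the deposited mean. The cause was not tested.

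Members called ranged over the 4 leave-one-out fits from 0 to 1 for ATRi against untreated at 72 h. They ranged from 1 to 3 between ages in ATRi livers and from 2 to 4 against 0 h. With every observation weighted 1, which counts a mean as 1 mouse, the members called were 0 between ages, 1 from 48 to 72 h and 1 against 0 h. Without a test, a difference of 0.5 in place of 1 gave 2 members at 3 months from 0 to 48 h and 2 from 48 to 72 h, 3 at 12 months from 0 to 72 h, and 3 between ages at 72 h. The borrowed spread gave 1 between ages at 0 h, 0 at 48 h and 1 at 72 h, and at 12 months 3 from 0 to 72 h and 1 from 48 to 72 h. Centring gave 1 between ages at 0 h and 1 at 12 months from 0 to 48 h, and quantile normalization 1 between ages at 0 h and 1 at 72 h. Quantile normalization also turned Apoh from 0.02 to −0.26 between 48 and 72 h at 12 months, from 0.08 to −0.26 between ages at 72 h and from 0.11 to −0.09 between 0 and 72 h at 3 months. For the 48 h response between ages, Apoh went from 0.01 to −0.09 and Lipc from 0.06 to −0.04 with centring, and Lipc to −0.02 with quantile normalization.

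Over all genes, weights of 1 called 2 genes between ages in ATRi livers, 665 from 48 to 72 h and 219 against 0 h. Without M547 these were 1072, 2511 and 3615, and without M548 1182, 2723 and 3918. For the ATRi effect between ages 1495 genes passed without M546. For the 48 h response between ages 42 passed with no trend, 0 with weights of 1, and between 8 and 77 with a liver left out. No paired analysis was possible because the other groups have only means. The number of livers, 4, and the unknown depth limit every test.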
